A study of Caenorhabditis elegans with 2 samples.

Results

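The 42 chromatin regulator genes described here were listed by name. They encode enzymes that acetylate, deacetylate, methylate or demethylate histones, ATP-driven remodellers, the DREAM repressor complex and a group called heterochromatin readers here. The name of this last group is a label and does not say that each of its proteins reads a repressive mark. All 42 were found by name among the 19973 protein-coding genes of the nuclear chromosomes in the Ensembl gene models. They were examined for binding of F52B5.7 in whole Caenorhabditis elegans. The animals came from a single strain, OP606, which carries unc-119(tm4063) on chromosome III together with the transgene wgIs606, a copy of F52B5.7 fused at its C terminus to GFP and FLAG. They were young adults of both sexes, collected 63 h after starved, bleach-synchronised L1 larvae were fed, and chromatin was sheared by sonication and precipitated with an antibody against GFP. The series holds 2 biological replicates in 1 group, so no treatment or genotype is compared. The labels do not name the promoter of the transgene, and whole animals were used, so strong binding in few cells and weak binding in many cannot be told apart.

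Chromatin regulators set how tightly DNA is packed around histones. Acetyltransferases such as CBP and methyltransferases of histone H3 lysine 4 (H3K4) act at active promoters and enhancers, whereas deacetylases, the Polycomb complex PRC2, which methylates H3K27, and the H3K9 methyltransferases with their HP1-type readers are tied to silent chromatin. DREAM joins an Rb-family protein, an E2F-DP pair and the MuvB subunits. It represses cell cycle and germline genes in somatic cells of the worm. Proteins of this kind act at many loci, but a peak at the promoter of such a gene does not by itself show that the bound factor regulates it.

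A gene was counted as bound when the summit of an optimal peak lay between 1000 bp upstream and 500 bp downstream of one of its transcription start sites (TSSs). Many worm transcripts are trans-spliced, and their annotated starts then lie downstream of the point where transcription begins. The optimal list holds the 1032 peaks that the authors kept after comparing replicates, and these are the same 1032 regions that head the pooled candidate list. Each candidate list, pooled or of 1 replicate, holds 30000 regions ranked by the authors' signal value, which has no stated scale. Ranks can be set side by side between replicates, and signal values only within a list. Signals of the optimal peaks ran from 115 to 2954, and the read depth behind them is unknown.

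DNA under 4 of the bound regulator genes is shown. These genes cover the strongest peak of the group, 2 promoters shared with a neighbouring gene, and a peak near the weak end of the list. The lin-35 peak, also in a shared promoter and near the weak end, is not shown. All 3 bound genes with the letters ACGCAG near the summit are among those shown, so the display over-represents these letters. Sequences are the plus strand of ce11, written 5′ to 3′, and stretches annotated as untranslated were left out. The cbp-1 peak is shown whole (chrIII:9765507-9765716, summit at base 137). The set-16 peak is also shown whole (chrIII:13643678-13643780, summit at base 48). For sir-2.1 the stretch around the summit is given (chrIV:10366247-10366332, summit at base 51). For lin-54 a stretch of 45 bases is given, just outside the rpl-12 untranslated region that holds the summit, on the side toward lin-54 (chrIV:13240652-13240696). Capitals mark matches on either strand to the searched letters ACGCAG (taken from earlier results on these data), to TTTGAA, an element that LIN-54 is known to bind, or to the E2F-like TTNNCGC, some of which overlap in the sir-2.1 stretch.
cbp-1: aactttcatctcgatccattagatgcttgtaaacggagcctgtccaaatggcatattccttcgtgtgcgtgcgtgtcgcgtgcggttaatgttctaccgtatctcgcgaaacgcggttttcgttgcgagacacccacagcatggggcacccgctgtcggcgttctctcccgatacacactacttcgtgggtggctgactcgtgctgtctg
set-16: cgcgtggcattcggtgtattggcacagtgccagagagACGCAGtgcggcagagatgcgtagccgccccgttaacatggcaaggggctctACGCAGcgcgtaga
lin-54: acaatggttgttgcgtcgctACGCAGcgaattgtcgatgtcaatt
sir-2.1: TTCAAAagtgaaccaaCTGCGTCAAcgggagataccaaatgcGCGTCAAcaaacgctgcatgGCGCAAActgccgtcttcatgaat

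F52B5.7 peaks lay at 7 of the 42 regulator genes (16.7%, 95% exact interval 6.97 to 31.4), against 600 of all 19973 protein-coding genes (3.0%). The bound genes were the acetyltransferase gene cbp-1, the methyltransferase genes set-16 and met-1, the deacetylase gene sir-2.1, the remodeller gene chd-7, and lin-35 and lin-54 of DREAM. Each had a single optimal summit in its window, and no peak was shared between these genes. The interval covers counting error only. No test of the share was made, since the genes were listed with earlier results of these data known.

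By role, 1 of 4 acetyltransferase genes, 1 of 4 deacetylase genes, 2 of 8 methyltransferase genes, 1 of 7 remodeller genes and 2 of 8 DREAM genes were bound. None of 3 PRC2 genes, 3 demethylase genes or 5 heterochromatin reader genes was bound, groups too small for a share of 0 to be told from 3.0%. Genes of both activating and repressing regulators were thus counted as bound, although the set-16 and lin-54 summits lay nearer to the TSS of another gene.

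**Figure D1:**
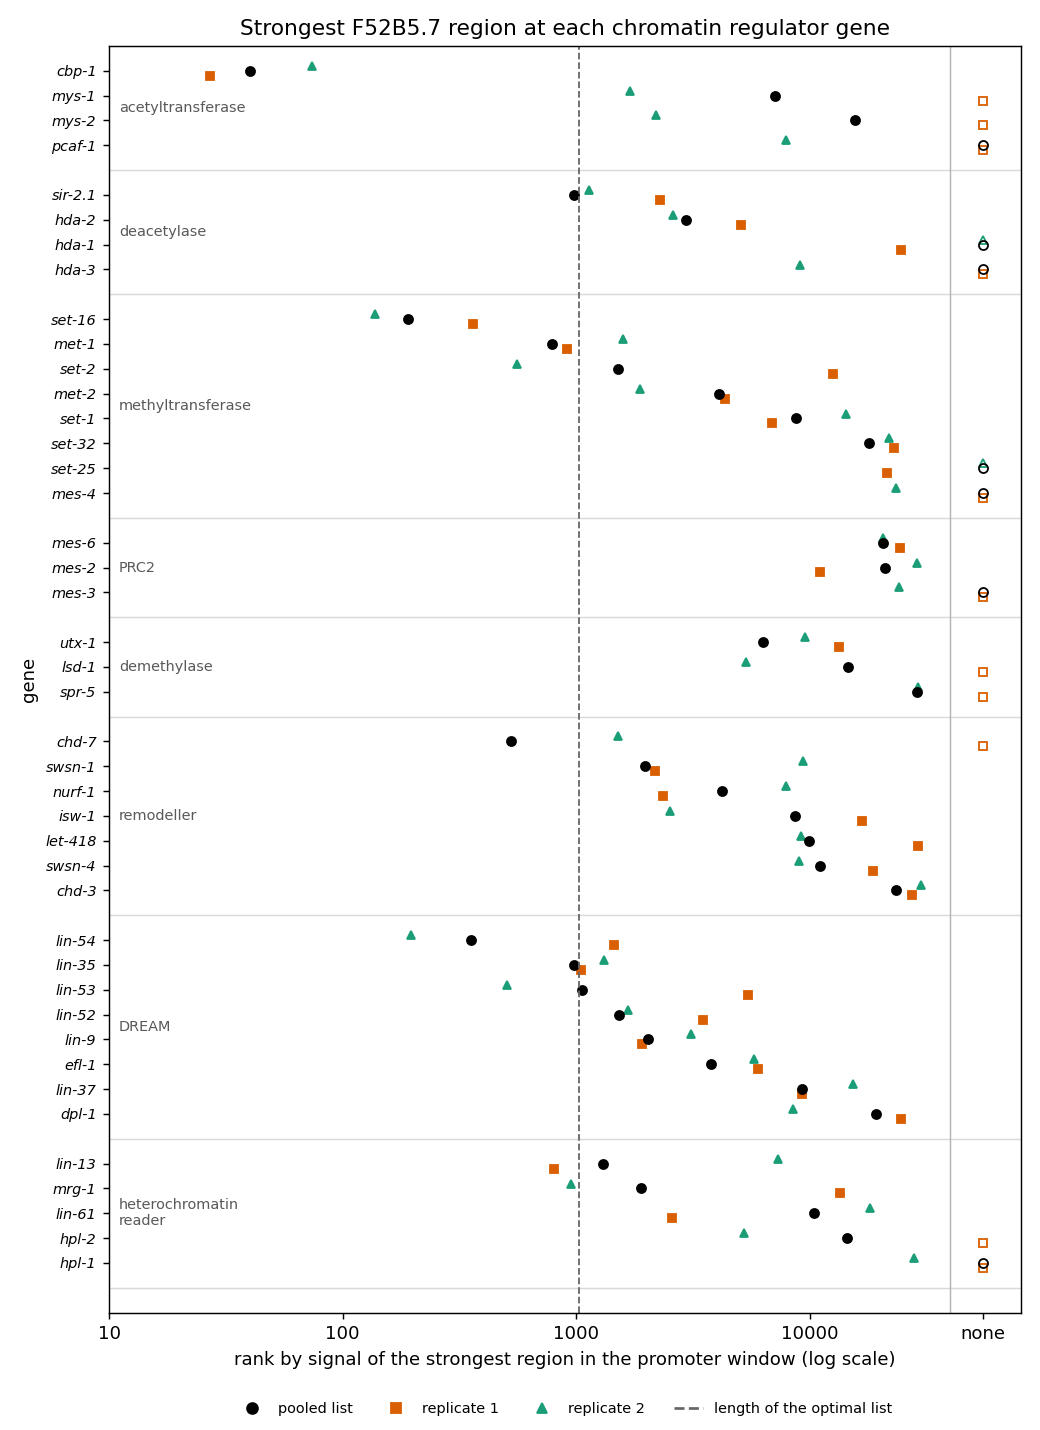
Rank by signal of the strongest region in the promoter window of each of the 42 chromatin regulator genes, by role, in the pooled list and in each replicate (log axis, 1 is the strongest; open symbols at "none" mark genes with no region in that list). The dashed line stands at rank 1032, the length of the optimal list: 7 genes lie left of it in the pooled list, and cbp-1 and set-16 do so in all 3 lists.

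Among the acetyltransferases, cbp-1 carried the strongest peak of the 42 genes. It encodes the worm CBP/p300, which acetylates histones at enhancers and promoters. Its peak had a signal of 315 and ranked 40 of 1032 in the optimal list, with the summit at position 9765643 of chromosome III, -866 bp from the TSS and between protein-coding genes. The overlapping region ranked 27 in replicate 1 (signal 188) and 74 in replicate 2 (signal 139), with summits 12 and 44 bp from the pooled one. Both replicates thus placed it among their 100 strongest regions, at nearly the same spot. No other protein-coding TSS lay within 1000 bp, the nearest being that of gcc-2 at 3500 bp. The call depends on the window, since with 500 or 250 bp on either side of a TSS cbp-1 was not bound. The peak is 210 bp wide, narrower than the median of 390 bp over all optimal peaks.

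The other acetyltransferase genes stood far behind. The strongest pooled region at mys-1, a TIP60-type MYST enzyme gene, ranked 7138, and that at mys-2, another MYST enzyme gene, ranked 15591. In replicate 2 their windows held regions at ranks 1702 and 2207, and in replicate 1 neither held any. For pcaf-1, of the GCN5/PCAF type, there was no pooled or replicate 1 region, and the best of replicate 2 ranked 7906.

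Of the methyltransferases, set-16 had a peak with signal 206 at rank 191. SET-16 is the MLL-type H3K4 methyltransferase. The overlapping region ranked 361 in replicate 1 (signal 87.7) and 138 in replicate 2 (signal 119), so both replicates held it among their 1032 strongest. The summit lay at 13643725 on chromosome III, in the interval between set-16 and the divergently transcribed drr-2, at -191 bp from the set-16 TSS and -155 bp from the drr-2 TSS. Its position alone does not assign it to either gene. The peak was the narrowest of the 7, at 103 bp.

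The peak of met-1, an H3K36 methyltransferase gene, was weaker, with signal 128 and rank 785. Its summit lay at 4254105 on chromosome I, -92 bp from the TSS and in an intron of C43E11.12. The region ranked 915 in replicate 1 (signal 67.4) and 1587 in replicate 2 (signal 55.7), inside the 1032 strongest of the first alone.

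Other methyltransferase genes did not reach the optimal list. At set-2, the SET1-type H3K4 methyltransferase gene, the strongest pooled region had a signal of 102 and rank 1507, with a summit at -238 bp. The overlapping regions ranked 558 in replicate 2 and 15985 in replicate 1, so the replicates differed widely there. The H3K9 methyltransferase gene met-2 followed at rank 4101, and set-1, the H4K20 methyltransferase gene, at rank 8730. The strongest region of set-32, whose product is linked to H3K9 methylation, ranked 18022. No pooled region lay in the windows of set-25, another H3K9 methyltransferase gene, or mes-4, the H3K36 methyltransferase gene of the germline. In single replicates the best of set-25 ranked 21505 (replicate 1) and that of mes-4 23352 (replicate 2).

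The only bound deacetylase gene was sir-2.1, which encodes a sirtuin that depends on NAD. Its peak had a signal of 117 and rank 975, near the weak end of the optimal list. The summit lay at 10366297 on chromosome IV, -68 bp from the TSS, the smallest distance among the 7 genes. Neither replicate held the region among its 1032 strongest, since it ranked 2296 in replicate 1 (signal 52.8) and 1140 in replicate 2 (signal 62).

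The class I deacetylase genes hda-1, hda-2 and hda-3 had no optimal summit in their windows. At hda-2, however, an optimal peak with signal 147 and rank 507 lay in the 3′ untranslated region, its summit 1772 bp downstream of the TSS (chromosome II, position 8020789). It ranked 631 in replicate 1 and 387 in replicate 2, inside the 1032 strongest of both. The nearest other protein-coding TSS, that of zyg-11, was 3109 bp away. In the promoter window of hda-2 the strongest pooled region ranked 2962. Its summit lay within the annotated span of swsn-7, the adjoining gene upstream on the same strand. The windows of hda-1 and hda-3 held no pooled region, and their best single-replicate ranks were 24597 (hda-1, replicate 1) and 9118 (hda-3, replicate 2).

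Among the remodellers, chd-7, the worm gene of the CHD7 family, had a peak with signal 146 at rank 527. The summit lay at 4699503 on chromosome I, -928 bp from the TSS, near the edge of the window. In replicate 1 an overlapping region ranked 368 (signal 87.3), but its summit was 131 bp from the pooled one, at -1059 bp, and thus outside the window. In replicate 2 the region ranked 1509 (signal 56.6) with the summit at -973 bp. The call at chd-7 therefore depends on where the window ends. The annotated noncoding RNA gene linc-91 lay within 250 bp of this summit, and the nearest other protein-coding TSS 5101 bp away.

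The SWI/SNF core subunit gene swsn-1 came closest of the remaining remodellers, from windows around 5 TSSs, with a pooled region at rank 1967 (signal 93.4), rank 2168 in replicate 1 and 9391 in replicate 2. The NURF subunit gene nurf-1 followed at rank 4194, from windows around 16 annotated TSSs, a larger target than the single TSS of most members. The ISWI-type gene isw-1 reached rank 8661, the Mi-2-type gene let-418 rank 9941, the SWI/SNF ATPase gene swsn-4 rank 11108 and chd-3, also of the Mi-2 type, rank 23486. A pooled region of some strength lay at each of the 7 remodeller genes, against 83.3% of all members and 38.7% of all protein-coding genes.

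All 8 genes of the DREAM group had a pooled region in the window, and 5 of them had one within a pooled list 2 times as long as the optimal list. Over all 42 members these shares were 83.3% and 33.3%, and over all protein-coding genes 38.7% and 5.36%, and 8 genes are too few to set the group apart from the other members. The peak of lin-54, which encodes the DNA-binding MuvB subunit, had a signal of 165 and rank 356. Its summit at 13240646 on chromosome IV lay -398 bp from the lin-54 TSS but only 5 bp inside the 5′ untranslated region of rpl-12, a large ribosomal subunit gene on the other strand. The region ranked 1454 in replicate 1 (signal 59.6) and 197 in replicate 2 (signal 106). The peak of lin-35, the gene for the Rb-family protein, had a signal of 117 and rank 983, with the summit at 5807539 on chromosome I, -170 bp from its TSS and -248 bp from that of vps-51. It ranked 1048 in replicate 1 (signal 65.1) and 1310 in replicate 2 (signal 59.3), outside the 1032 strongest of both and narrowly so only in replicate 1.

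Directly below the end of the optimal list stood lin-53, the gene for an RBAP46/48-type histone chaperone that DREAM shares with other complexes. Its pooled region ranked 1057 (signal 114), against 983 for lin-35 and 975 for sir-2.1, the members just inside. The lin-53 region ranked 504 in replicate 2 and 5446 in replicate 1. The MuvB subunit genes lin-52 and lin-9 had pooled regions at ranks 1523 and 2037, with summits at -7 and -85 bp. The lin-52 region ranked 3510 in replicate 1 and 1670 in replicate 2, and the lin-9 region 1918 and 3093. The E2F gene efl-1 reached rank 3780, lin-37 of MuvB rank 9315 and the DP gene dpl-1 rank 19331. The group thus runs from rank 356, in the stronger 50% of the optimal list, to far down the candidates.

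No gene of the heterochromatin reader group reached the optimal list within its window. Of this group, 2 genes had pooled regions ranked below the end of the optimal list but within 2 times its length. At lin-13, which encodes a zinc finger protein that works with HPL-2, the pooled region ranked 1298 (signal 106, summit at -714 bp), with ranks of 805 in replicate 1 and 7323 in replicate 2. At mrg-1, the MRG15-type chromodomain gene, it ranked 1890 (signal 94.6), with ranks of 13539 in replicate 1 and 953 in replicate 2, and the spcs-2 TSS lay nearer, at 106 bp. A separate optimal peak (signal 115, rank 1019) lay at -1226 bp from mrg-1, outside its window and 851 bp from spcs-2. The MBT-repeat gene lin-61 ranked 10391 and the HP1-type gene hpl-2 14494. The other HP1-type gene, hpl-1, had no pooled region, and its best in replicate 2 ranked 27849.

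The PRC2 and demethylase genes had only weak candidates. Of the PRC2 genes, mes-6 ranked 20627 and mes-2, the catalytic subunit gene, 21009. For mes-3 there was no pooled region, and its best in replicate 2 ranked 24231. Of the demethylase genes, the H3K27 demethylase gene utx-1 ranked 6314, and the LSD1-type genes lsd-1 and spr-5 ranked 14584 and 28858.

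**Figure D2:**
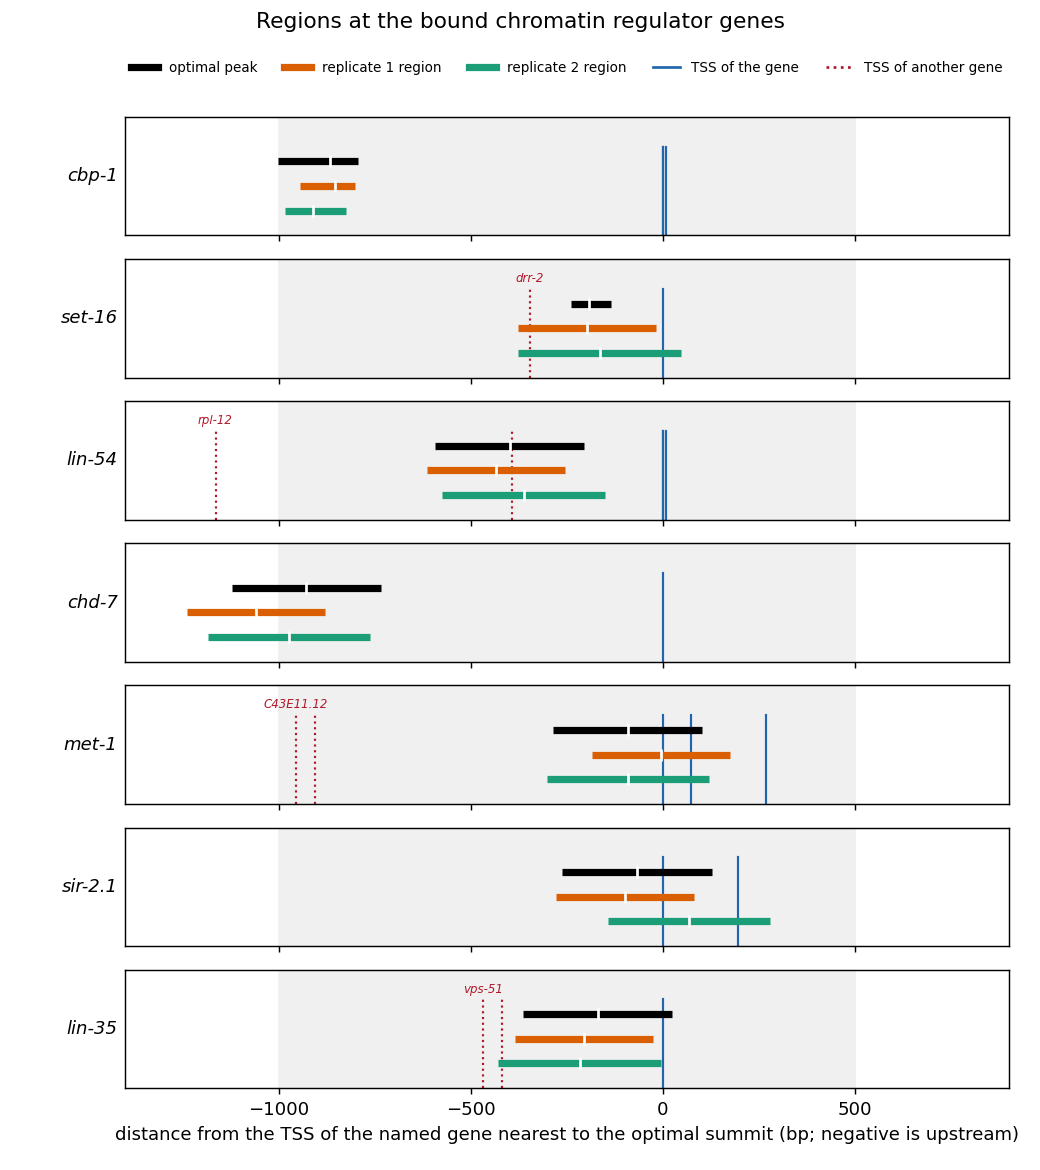
Optimal peak and the strongest overlapping region of each replicate at the 7 bound chromatin regulator genes, drawn to scale against distance from the gene's own TSS (bp, negative upstream); white ticks are summits, blue lines TSSs of the gene, dotted red lines TSSs of other genes, and grey the promoter window. The cbp-1 and chd-7 summits lie at -866 and -928 bp, the set-16 summit lies nearer to drr-2, and the lin-54 summit lies at an rpl-12 TSS.

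Candidate regions of any strength were also common at these genes. A pooled region lay in the window of 35 of the 42 (83.3%, 68.6 to 93.0), against 38.7% of all protein-coding genes. Each of the 7 others had a region in exactly 1 replicate, so every member had a region in some list. With the pooled list read to 2 times the length of the optimal list, 14 members had one (33.3%, 19.6 to 49.5), against 5.36% of all genes. The added ones were lin-13, lin-52, lin-53, lin-9, mrg-1, set-2 and swsn-1. Among genes with a pooled region, 7 of 35 members (interval 8.44% to 36.9%) had an optimal peak, against 7.76% of all such genes, a narrower gap than over all genes. The intervals cover counting error only and are no test, since the genes were listed with earlier results of these data known. The 28 members with weaker pooled regions had their own TSS nearest to the summit in 26 cases, with mrg-1 and mes-6 as exceptions.

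**Figure D3:**
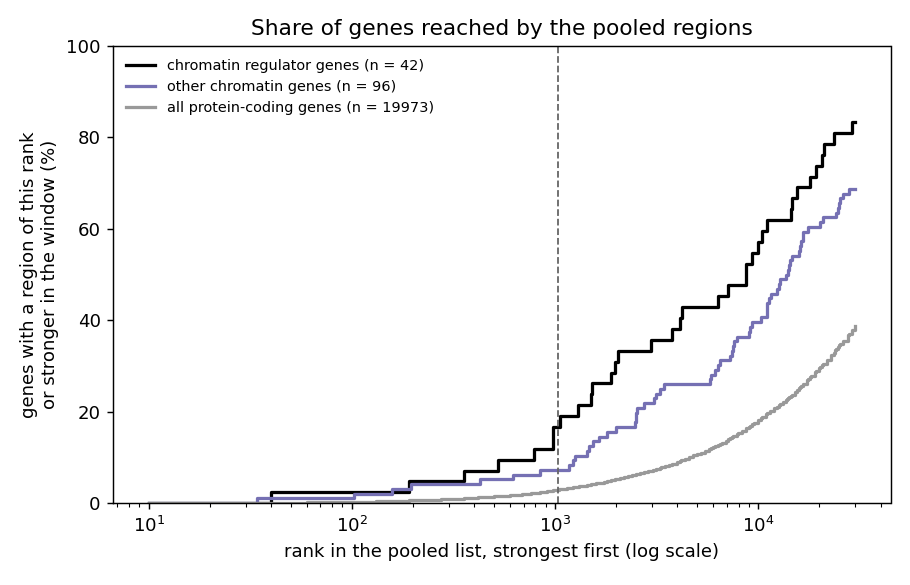
Share of genes with a pooled region of a given rank or stronger in the promoter window (percent, against rank on a log axis) for the 42 chromatin regulator genes, 96 other chromatin genes and all 19973 protein-coding genes. At rank 1032 (dashed) the shares are 16.7%, 7.29% and 3.0%, and at the end of the list 83.3%, 68.8% and 38.7%.

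The replicates did not hold the same regulators among their strongest regions. With the 1032 strongest regions of replicate 1, 4 of 42 members were bound (9.52%, against 2.61% of all genes), namely cbp-1, lin-13, met-1 and set-16. With those of replicate 2, 6 were bound (14.3%, against 3.05%), namely cbp-1, lin-53, lin-54, mrg-1, set-16 and set-2. Only cbp-1 and set-16 were in both sets (4.76%, against 1.47% of all genes). Over all genes 294 were in both sets, of 521 with replicate 1 and 609 with replicate 2. Partial sharing was thus not particular to the regulators. Seen from the optimal peaks, 2 of the 7 overlapped the 1032 strongest regions of both replicates (28.6%), against 285 of the 600 bound genes (47.5%). With 2 times as many regions from each replicate, 6 of the 7 did, sir-2.1 being the exception, against 78.7% of the bound genes. With all candidates all 7 did, against 96.5%, so the counts with these longer lists are near the share over all bound genes. Such overlap is largely given by construction, since the optimal peaks were derived from these lists. With the 1032 strongest regions, 7 peaks are too few to resolve 28.6% from 47.5%.

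On the ce10 build, whose optimal list held 992 peaks, each of the 7 peaks had a match on the same chromosome. A match was defined by equal width, equal summit offset and a signal within 0.01%, and positions were not compared between builds. For 6 of them this rule gave the match, and cbp-1 matched only with a signal within 5% and an offset within 2 bp. The cbp-1 peak had the same width but a signal of 306 on ce10 against 315 on ce11, a rank of 42 against 40, and a summit 1 base further from its start.

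The positions of the 7 summits were set beside those of all bound genes. All 7 summits lay upstream of the gene's own TSS, as did 444 of the 600 summits over all bound genes (74.0%), a difference that 7 peaks cannot resolve. Over 500 bp upstream lay 2 of 7, against 156 of 600. The median position was -191 bp, against -225.5 bp over all bound genes. Promoter window length hardly differed between the groups, with a median of 1508 bp for bound members and 1501 bp for all protein-coding genes, whereas the genes themselves were long, with a median of 8317 bp for bound members, 5030 bp for all members and 2027 bp for all protein-coding genes. In 5 of 7 cases the gene's own TSS was the nearest, set-16 and lin-54 being the exceptions, against 81.2% of all bound genes. When each peak was given only to its nearest TSS, 5 members were bound (11.9%, 3.98 to 25.6), against 2.45% of all genes. Within 250 bp on either side of a TSS, 4 members had a summit (9.52%), against 1.34%, these being lin-35, met-1, set-16 and sir-2.1.

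None of the 7 summits had a small RNA gene, meaning one for a tRNA, an snoRNA or an snRNA, closer than 250 bp. Over all bound genes, 98 of 600 had such a gene beside their strongest summit (16.3%), a difference that 7 summits cannot resolve. Every 25-base stretch of the 7 peaks occurred once in the nuclear genome, which was so for 684 of the 1032 optimal peaks (66.3%). Reads at these peaks can thus be placed without ambiguity at that length. The share of bases masked as repeats or simple sequence in the RefSeq genome ran from 0% at cbp-1 to 49.7% at lin-54, with a median of 17.62% over all optimal peaks.

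Over the summit base and 50 bases on either side, GC content ran from 46.53% to 62.38% with a median of 47.52%, and set-16 was the highest. The median over all optimal peaks was 49.5% and over other pooled candidates 44.55%. In the same stretch 6 motifs were searched on both strands. The letters of ACGCAG, of AGAGCG, of GTTCGA and of GAACCC were chosen with earlier results of these data known, so their counts are descriptions only. ACGCAG was present at set-16, lin-54 and sir-2.1 (3 of 7), against 10.5% of all optimal summits, 12.2% of those in promoter windows and 4.01% of other candidates. It occurs 2 times in the set-16 peak and once each in the lin-54 and sir-2.1 stretches printed above, in sir-2.1 on the minus strand. GTTCGA, letters of the B box of tRNA genes, and GAACCC were at none of the 7, against 12.6% and 8.43% of all optimal summits. Differences of this size cannot be resolved with 7 summits. AGAGCG was at lin-35 alone, against 11.0%. TTTGAA, letters of the element that LIN-54 binds, was at sir-2.1 alone, against 13.1% of optimal summits, and the E2F-like TTNNCGC was at sir-2.1 and lin-54, against 23.6%. No motif was found at cbp-1, chd-7 or met-1, which says only that these letters are not in those windows.

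A wider list of 96 other chromatin genes, named from background knowledge, had 7 bound members (7.29%, 2.98 to 14.4), against 3.0% of all genes. The strongest was at prmt-5, an arginine methyltransferase gene, with signal 321 and rank 34, its summit 39 bp downstream of the TSS in coding sequence. It ranked 58 in replicate 1 and 25 in replicate 2. The remodeller gene chd-1 followed with signal 241 and rank 103 (ranks 211 and 63 in replicates 1 and 2), then spat-3 with signal 217 (rank 157) and swsn-7 of SWI/SNF with 205 (rank 195). The summits of these 3 lay at -625, -631 and -764 bp. Weaker peaks lay at epc-1, a gene of the Enhancer of Polycomb family (signal 156), mep-1, whose zinc finger product partners LET-418 (137), and swsn-3 of SWI/SNF (123). In all 7 cases the gene's own TSS was the nearest protein-coding one, and none of these summits had a tRNA, snoRNA or snRNA gene beside it. Other genes not annotated as protein-coding lay within 250 bp of the spat-3, swsn-7, epc-1 and mep-1 summits. The epc-1 summit also lay in the window of Y111B2A.12, and the swsn-3 summit lay in an intron of cox-6B. The swsn-3 region ranked 7010 in replicate 1 and 454 in replicate 2.

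Several groups of the wider list had no optimal peak, but with 9 to 11 genes each they are too small for a share of 0 to be told from 3.0%. None of the 11 genes listed for H3K4 methylation complexes was bound, nor any of 9 further demethylase genes, 11 deacetylase and partner genes or 11 condensin and dosage compensation genes. SWI/SNF and other remodellers had 3 of 9 bound, from 3 separate peaks, against 7.29% of the wider list and 3.0% of all genes. Here too 9 genes are too few to set the group apart from the rest of the list. The names that did not match, swsn-2.1, swsn-8 and ino80, are remodeller names, so this group is incomplete. A pooled region lay at 66 of the 96 genes (68.8%), against 38.7% of all genes. Among the 1032 strongest regions of replicate 1, 7 of the 96 genes had one, against 2.61% of all genes. For replicate 2 the count was 10 (10.4%), against 3.05%.

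**Figure D4:**
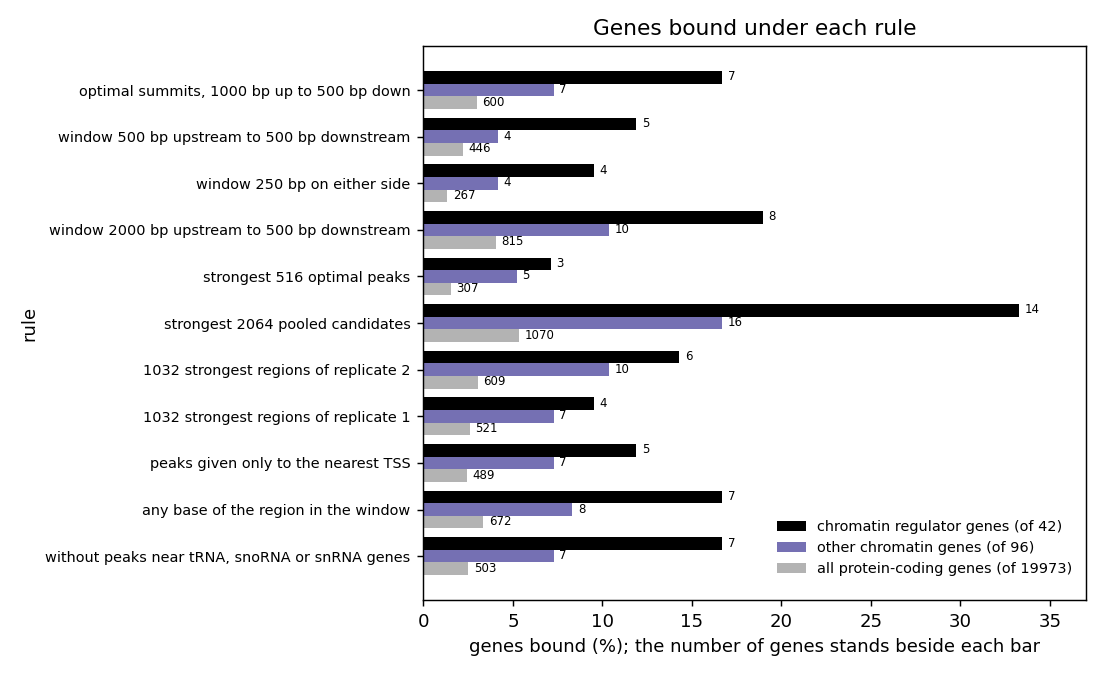
Share of genes bound (percent) under the rule used in the text (top) and 10 others, for the 42 chromatin regulator genes, 96 other chromatin genes and all 19973 protein-coding genes; the number of genes stands beside each bar. The chromatin regulator share runs from 7.14% with the stronger 50% of the optimal list to 33.3% with a pooled list 2 times as long, and lies above that of all genes under each rule drawn. The rules use overlapping regions and the same genes, so they are not independent.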

How the data were processed

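Chromatin immunoprecipitation with sequencing was done on 2 biological replicates. The submitters' manifests describe how the lists arose: each replicate's candidates from its alignments and a control, pooled candidates from both replicates with the control, and optimal peaks from these 3 lists by the irreproducible discovery rate. The signal value and the −log10 q value of each region are those the authors deposited, and the latter was not used. The sources used here name no aligner, peak caller, version or threshold, and signal tracks and the control were not analysed here. Depth is unknown, so no precision from reads can be given.

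Regions on ce11 were annotated with Ensembl release 115 models of the same assembly (WBcel235) in Python 3.11.15; 99.7% of 19973 coding sequences began with ATG in the RefSeq sequence, a check of the build. TSSs were those of protein-coding transcripts. Shares carry 95% exact Clopper-Pearson intervals (scipy 1.17.1), which cover counting error only and are not tests against the share of all genes. The assignment of summits to windows was tested on planted summits. Members and lists were chosen with earlier results of these data known. Named were all bound members, the 15 others with the strongest pooled region and members with a peak near the window; further members are named to account for all 42. From the wider list of 99 names, 96 matched. Alternatives varied the window, the list, the assignment and the overlap.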

Additional observations from a re-analysis of the deposited data

How the results depend on the processing

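No paired analysis was possible because both samples belong to 1 group. With a window of 250 bp on either side, 4 members, 267 of all genes and 4 of the other chromatin genes were bound, 3 members by a summit nearest to their own TSS, and 19 members had a pooled region. With 500 bp on either side, 5 members (11.9%, against 2.23% of all genes) and 4 other chromatin genes were bound, 3 members by a summit nearest to their own TSS. The stronger 50% of the optimal list gave 3 members (1 by its own TSS) and 307 genes, and a pooled list 2 times as long gave 14 members (11), 1070 genes and 16 other chromatin genes. With 1 replicate left out, 4 to 6 members were bound, 3 to 4 of them by a summit nearest to their own TSS, and 3 of the 7 were bound in each case. Of the 7 peaks, 1 was in both replicates with 50% reciprocal overlap, 6 with 2 times as many regions from each and 7 with all candidates. A wider window or longer list admits more genes by construction; the cause of the moves with a replicate left out and with reciprocal overlap was not tested. The remaining alternatives stayed within 1.5 times of the counts in the report. Of the 10 alternatives, set-16 was bound in 9, cbp-1 and met-1 in 8, lin-54, lin-35 and sir-2.1 in 7 and chd-7 in 5. The read depth behind the lists is unknown.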
